A study of Mus musculus with 8 samples.

Results

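The 10 genes described here encode the enzymes and the chaperone that make a collagen chain fit to fold and to be crosslinked. They are 10 of the 46635 loci in a table of gene levels from the small intestine of wild-type mice, and each was found by its symbol. P4ha1, P4ha2 and P4ha3 are the alpha subunits of collagen prolyl 4-hydroxylase, Plod1, Plod2 and Plod3 the lysyl hydroxylases, Lox, Loxl1 and Loxl2 lysyl oxidases, and Serpinh1 the collagen chaperone HSP47. RNA came from the gut wall left after EDTA had taken off the epithelium, a preparation the labels call mesenchyme. There were 4 libraries from pups at postnatal day 14 (P14) and 4 from fetuses late in gestation (E17.5 in the protocol, E17 in the age label), with no treatment or mutation in either group. The labels do not say if a library is 1 animal or a pool. The p-values below therefore measure the spread between these libraries, which may be technical.

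Collagen chains are modified while they enter the endoplasmic reticulum. Prolyl 4-hydroxylase, a tetramer of catalytic alpha subunits and the beta subunit P4HB, turns proline into 4-hydroxyproline, which keeps the triple helix stable at body temperature. Lysyl hydroxylases mark lysines for sugars and crosslinks, HSP47 binds the folded helix until it leaves for the Golgi, and lysyl oxidases act outside the cell, oxidising lysines of collagen and elastin so that fibres become crosslinked. The hydroxylases need iron, 2-oxoglutarate and ascorbate, and the lysyl oxidases need copper. In the gut wall, fibroblasts and smooth muscle cells lay down most of this matrix.

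The libraries held 17702122 to 18474346 assigned reads at P14 and 16660998 to 19496632 at E17.5. Of 6 fibroblast and 6 smooth muscle markers, all but Pi16 and Tagln were well above 1 FPKM in every library. The fibroblast marker Pi16 was at 0.489 to 2.78 FPKM at P14 and 0.452 to 0.939 FPKM at E17.5, and the smooth muscle marker Tagln at 0.405 to 1.19 FPKM at P14 and 0.222 to 0.532 FPKM at E17.5. The 5 chondrocyte markers summed to 0.797 to 2.38 FPKM at P14 and 0.235 to 0.668 FPKM at E17.5, most of it Col9a1, at 0.773 to 2.18 FPKM at P14. P14 replicate 1 stood apart. The summed level of its 8 epithelial markers was 3569 FPKM, against 117 to 549 FPKM in P14 replicates 2 to 4 and 31.0 to 52.3 FPKM at E17.5. Its summed fibroblast markers were at 430 FPKM, against 1209 to 1225 FPKM in the other P14 libraries and 1144 to 1250 FPKM at E17.5. Summed markers of other cell types also had ranges that lay apart between the ages or in this library. Those of smooth muscle were at 2658 FPKM in P14 replicate 1 and 7334 to 10353 FPKM in P14 replicates 2 to 4, against 4644 to 5102 FPKM at E17.5. Blood endothelial markers were at 111 and 195 to 237 FPKM in the same P14 libraries, against 367 to 421 FPKM at E17.5. Macrophage markers were at 156 and 84.0 to 129 FPKM, against 178 to 207 FPKM at E17.5. The macrophage sum of P14 replicate 1 was mostly Csf1r, at 94.6 FPKM against 20.8 to 33.2 FPKM in P14 replicates 2 to 4. Among the P14 libraries, replicate 1 was also highest in Cd68 but lowest in Adgre1, Mrc1 and C1qa. Mesothelial markers were at 20.1 and 123 to 157 FPKM, against 57.3 to 100.1 FPKM at E17.5. Enteric neuron markers were at 74.0 and 129 to 172 FPKM, against 99.5 to 121 FPKM at E17.5. Enteric glia markers were at 13.6 and 27.6 to 42.8 FPKM, against 16.9 to 20.1 FPKM at E17.5. Skeletal muscle markers were at 13.1 and 37.2 to 58.5 FPKM, against 24.7 to 29.5 FPKM at E17.5. B and plasma cell markers were at 13.9 to 109 FPKM over all P14 libraries, against 3.87 to 5.83 FPKM at E17.5. The part of these cell types in the results below was not tested. Results for the 10 genes are given with and without P14 replicate 1. In bulk RNA, fewer cells of a type and less RNA per cell cannot be told apart.

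All 10 genes passed the filter on low values, an FPKM of at least 1 in 4 or more of the 8 libraries. FPKM corrects reads for the length of a gene and the size of a library, so levels can be compared between genes. The library size in the deposited values was not the plain number of assigned reads. It was 0.78 times that number for P14 replicate 1 and 1.02 to 1.06 times elsewhere. P14 was compared with E17.5 by limma on log2(FPKM + 1) over 14044 genes, and a gene was called at an adjusted p (Benjamini-Hochberg) under 0.05. With all libraries 5 of the 10 fell and none rose. Over all tested genes 24.7% were called, 15% down and 9.72% up (2108 and 1365 genes, or 2678 and 899 after rescaling to TPM, which shifted the median over all tested genes to -0.18). Without P14 replicate 1, 7 fell and 1 rose, beside 49.5% of all tested genes called, 26.9% down and 22.6% up. Every P14 library lay below every E17.5 library for 6 of the 10, as for 20.4% of all tested genes. With P14 replicate 1 left out this held for 7 (29.7% of all), and 1 gene lay wholly above (24.8% of all). The median log2 fold change of the 10 was -0.60 with all libraries and -0.45 without P14 replicate 1, beside 0.0022 and -0.025 over all tested genes. P4ha1 and Lox had the largest falls, and P4ha2, Plod2 and Plod3 also fell. P4ha3, Plod1, Loxl1, Loxl2 and Serpinh1 were not called with all libraries. Fold changes are given as P14 minus E17.5, in log2(FPKM + 1) units, and each ± is the SD of an age's 4 libraries unless n = 3 is stated.

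**Figure D1:**
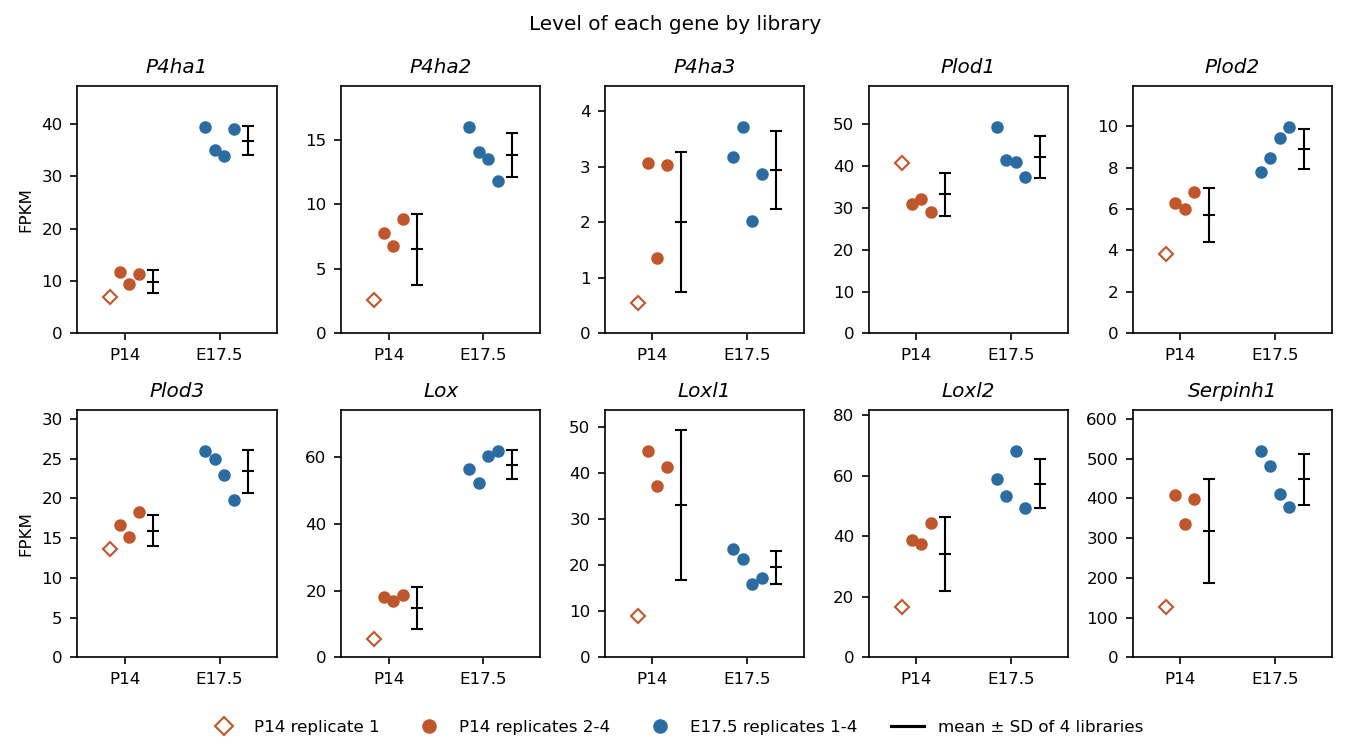
Level of each of the 10 genes in FPKM, on a linear axis from 0, in each P14 and E17.5 library. Each point is 1 library, the open diamond is P14 replicate 1, and the bar beside each group is the mean ± SD of its 4 libraries. P4ha1 and Lox reach at most 11.7 and 18.7 FPKM in the P14 libraries and at least 33.8 and 52.1 FPKM in the E17.5 libraries, and Loxl1 is higher at P14 in replicates 2 to 4 but not in replicate 1.

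The promoters of P4ha1 and P4ha2, genes that fell together, are shown here because both hold letters known as the core of the hypoxia response element, which HIF binds. P4HA1 and P4HA2 are known targets of HIF in human cells. The sequences are from RefSeq on GRCm38.p6, the build of the promoter table and not that of the gene coordinates given below. They cover the 250 bases before the annotated start, chr10:59323046-59323295 for P4ha1 and chr11:54100674-54100923 for P4ha2, both on the plus strand. Capitals mark ACGTG or GCGTG, or their reverse complements CACGT and CACGC.
P4ha1: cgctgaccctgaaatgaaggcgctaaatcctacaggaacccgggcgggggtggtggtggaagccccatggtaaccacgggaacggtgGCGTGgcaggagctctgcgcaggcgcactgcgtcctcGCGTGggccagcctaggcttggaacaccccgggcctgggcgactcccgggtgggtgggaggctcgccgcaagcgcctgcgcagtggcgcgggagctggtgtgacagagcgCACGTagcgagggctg
P4ha2: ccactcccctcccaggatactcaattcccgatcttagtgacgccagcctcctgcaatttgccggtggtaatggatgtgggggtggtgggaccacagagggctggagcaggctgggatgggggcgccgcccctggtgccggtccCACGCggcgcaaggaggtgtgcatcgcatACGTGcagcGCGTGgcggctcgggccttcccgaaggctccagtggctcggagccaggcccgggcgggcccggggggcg
P4ha1 held 1 match to ACGTG, 16 bases before the start, and 2 to GCGTG, and P4ha2 held 1 and 2, with ACGTG at 78 bases before the start. Over the same 250 bases, 16.6% of the 32851 promoters in the table held ACGTG, 28.2% held GCGTG and 6.13% held both. As the 2 promoters shown were picked for these letters, the shares are no test of them. Promoters were found for 6 of the 10 genes, and not for Plod2, Lox, Loxl1 or Loxl2. Plod3, also called down with all libraries, held both motifs too, with 1 match to ACGTG and 3 to GCGTG. Serpinh1 held ACGTG alone, Plod1 held GCGTG alone, and P4ha3 held neither. The heat shock element motifs GAANNTTC and TTCNNGAA, searched because HSP47 is a heat shock protein, had no match in the Serpinh1 promoter and 1 in all, TTCNNGAA in P4ha2. These are found in 6.69% and 7.17% of promoters. A match describes letters only.

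P4ha1 (gene ID 18451, chromosome 10, 59159019 to 59209126, plus strand, GRCm39 here and for all gene positions below) encodes the main catalytic subunit of prolyl 4-hydroxylase in most tissues. It was at 6.85, 11.7, 9.45 and 11.3 FPKM in P14 replicates 1 to 4, against 39.3, 34.96, 33.8 and 38.9 FPKM in E17.5 replicates 1 to 4. The P14 libraries all lay far below the E17.5 libraries, and P14 replicate 1 was the lowest of them. The means were 9.81 ± 2.19 FPKM at P14 and 36.7 ± 2.79 FPKM at E17.5 (n = 4 each), and P4ha1 fell by 1.83 (SE 0.162, limma adjusted p = 0.000693). Without P14 replicate 1 it fell by 1.68 (SE 0.0944, adjusted p = 1.04e-05). The call held in all 20 alternative settings tried, with a highest adjusted p of 0.0162. Median-of-ratios scaling, counted among them, left the deposited values unchanged and so repeated the main fit.

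P4ha2 (gene ID 18452, chromosome 11, 53991750 to 54022494, plus strand), the alpha subunit best known from cartilage and endothelium, was lower in level at both ages. It was at 2.58, 7.79, 6.76 and 8.89 FPKM in P14 replicates 1 to 4, against 15.98, 14.1, 13.5 and 11.8 FPKM at E17.5. The ages did not overlap, with P14 replicate 1 well below the other P14 libraries. P4ha2 fell by 1.07 (SE 0.304, limma adjusted p = 0.0363), and by 0.75 without P14 replicate 1 (SE 0.118, adjusted p = 0.00119). Leaving out P14 replicate 3 (adjusted p = 0.0711) or any 1 of the E17.5 libraries ended the call (adjusted p 0.0907, 0.0862, 0.0896 and 0.0711 for E17.5 replicates 1 to 4), as did rescaling to TPM (adjusted p 0.0513) and testing with no filter (adjusted p 0.0762). A replicate block in the model also ended it (adjusted p 0.089).

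P4ha3 (gene ID 320452, chromosome 7, 99934637 to 99968908, plus strand), the least studied alpha subunit, was the lowest of the 10 genes at both ages. It was at 0.546, 3.07, 1.36 and 3.03 FPKM at P14, on 19 to 144 reads, against 3.17, 3.71, 2.02 and 2.87 FPKM at E17.5, on 95 to 160 reads. The ages overlapped and P4ha3 did not pass the test (-0.49, SE 0.325, limma adjusted p = 0.302; -0.20, adjusted p = 0.479 without P14 replicate 1).

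The make-up of the alpha subunits was compared through their shares and their 3 ratios, and no ratio passed after adjustment. P4ha1 took 68.6%, 51.8%, 53.8% and 48.6% of the summed FPKM of the 3 genes in P14 replicates 1 to 4, against 66.3% to 72.6% at E17.5. P14 replicate 1 thus lay within the E17.5 range and the other P14 libraries below it. The ratio of P4ha1 to P4ha2 was 2.65 in P14 replicate 1 and 1.27 to 1.498 in replicates 2 to 4, against 2.46 to 3.30 at E17.5. On the log2 scale this ratio differed by -0.71 (exact two-sided permutation p = 0.114, adjusted over 9 ratios 0.206), and by -0.94 without P14 replicate 1 (exact p = 0.0286, adjusted 0.0514). The smallest possible p was 0.0286 in each case, so a ratio could pass after adjustment only if several of the 9 reached it. Fitted with all libraries, the P4ha1 to P4ha3 ratio had a difference of -1.11 (exact p = 0.0857, adjusted 0.193).

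**Figure D2:**
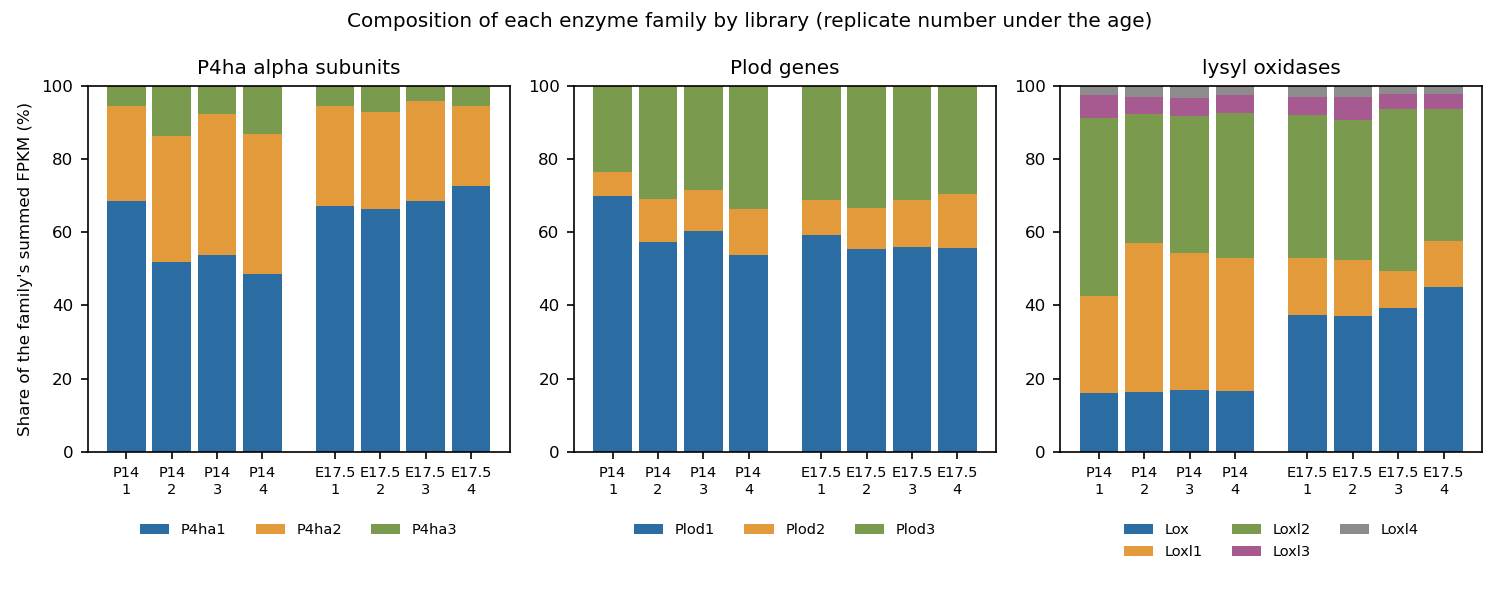
Share of each gene in the summed FPKM of its family, in percent, for each P14 and E17.5 library (replicate number under the age). Lox makes up 16.1% to 16.98% of the lysyl oxidases in the P14 libraries and 37.2% to 45.0% in the E17.5 libraries, while the shares of the Plod genes overlap between the ages.

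The lysyl hydroxylases moved less. Plod1 (gene ID 18822, chromosome 4, 147994210 to 148021233, minus strand), which hydroxylates lysines within the helix, was at 40.7, 31.0, 32.1 and 29.0 FPKM in P14 replicates 1 to 4, against 49.3, 41.4, 41.0 and 37.3 FPKM at E17.5. Here P14 replicate 1 was the highest P14 library and fell inside the E17.5 range. Plod1 was not called with all libraries (-0.34, SE 0.138, limma adjusted p = 0.104). It fell by 0.44 without P14 replicate 1 (SE 0.0988, adjusted p = 0.00661), and was also called after rescaling to TPM (-0.54, adjusted p = 0.0154), and after quantile normalization (-0.49, adjusted p = 0.0133).

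Plod2 (gene ID 26432, chromosome 9, 92421828 to 92490481, plus strand) hydroxylates lysines of the collagen ends, the telopeptides, which directs the kind of crosslink. It was at 3.84, 6.28, 5.98 and 6.81 FPKM at P14, against 7.81, 8.46, 9.45 and 9.95 FPKM at E17.5, with no overlap. It fell by 0.58 (SE 0.166, limma adjusted p = 0.0383), and by 0.43 without P14 replicate 1 (adjusted p = 0.00681). It missed the threshold when P14 replicate 2 or 3 (adjusted p = 0.0535 and 0.0756) or any E17.5 library (adjusted p 0.0589, 0.0809, 0.106 and 0.104 for replicates 1 to 4) was dropped, in TPM (adjusted p 0.059) and with no filter (adjusted p 0.0792). Plod2 also missed it with a replicate block in the model (adjusted p 0.0517).

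Plod3 (gene ID 26433, chromosome 5, 137015873 to 137025500, plus strand), which also adds sugars to hydroxylysine, was at 13.6, 16.6, 15.2 and 18.2 FPKM at P14, against 25.9, 24.98, 22.96 and 19.8 FPKM at E17.5. The groups did not overlap, though P14 replicate 4 and E17.5 replicate 4 were close. Plod3 fell by 0.53 (SE 0.127, limma adjusted p = 0.0203), and by 0.46 without P14 replicate 1 (adjusted p = 0.0074). Dropping P14 replicate 3 (adjusted p = 0.0572) or E17.5 replicate 1, 2 or 3 ended the call (adjusted p 0.0562, 0.0622 and 0.06), as did a replicate block in the model (adjusted p 0.083). Its span overlaps Znhit1 on the opposite strand, itself at 16.7 to 28.4 FPKM, and no source used here says if counting was stranded, so the Plod3 values are uncertain.

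Proportions among the 3 Plod genes overlapped between the ages. Plod1 took 53.7% to 69.96% of their summed FPKM at P14 and 55.3% to 59.4% at E17.5. The Plod2 to Plod3 ratio was 0.282 to 0.394 at P14 and 0.301 to 0.502 at E17.5. The 3 log2 ratios within the family differed by 0.31, 0.21 and -0.11 (exact permutation p = 0.486, 0.429 and 0.6), values that do not show the ratios to be equal.

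Among the lysyl oxidases, Lox and Loxl1 went opposite ways in P14 replicates 2 to 4. Lox (gene ID 16948, chromosome 18, 52649132 to 52662939, minus strand), the founding member of the family, was at 5.51, 18.1, 16.9 and 18.7 FPKM in P14 replicates 1 to 4, against 56.4, 52.1, 60.4 and 61.7 FPKM in E17.5 replicates 1 to 4. All P14 libraries lay far below all E17.5 libraries, and P14 replicates 2 to 4 were close to each other. The means were 14.8 ± 6.24 FPKM at P14 and 57.7 ± 4.34 FPKM at E17.5 (n = 4 each), and Lox fell by 2.02 (SE 0.345, limma adjusted p = 0.0059). Leaving out P14 replicate 1, it fell by 1.63 (SE 0.0809, adjusted p = 7.7e-06), and it was called in all 20 alternatives (highest adjusted p 0.0263).

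Loxl1 (gene ID 16949, chromosome 9, 58195006 to 58220495, minus strand), which in mice is needed to keep elastic fibres, ran the other way in 3 of 4 P14 libraries. It was at 9.01 FPKM in P14 replicate 1 and at 44.8, 37.2 and 41.3 FPKM in P14 replicates 2 to 4, against 23.6, 21.4, 15.9 and 17.3 FPKM at E17.5. Replicate 1 lay below every E17.5 library and the other 3 above them all. With all libraries Loxl1 was not called (0.53, SE 0.468, limma adjusted p = 0.433). Without P14 replicate 1 it rose by 1.05 (SE 0.138, adjusted p = 0.000517), to 41.1 ± 3.8 FPKM (n = 3) at P14, against 19.5 ± 3.58 FPKM at E17.5.

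Loxl2 (gene ID 94352, chromosome 14, 69846085 to 69933283, plus strand), known for crosslinking collagen IV of basement membranes, was at 16.6, 38.8, 37.4 and 44.5 FPKM at P14, against 59.0, 53.3, 68.2 and 49.4 FPKM at E17.5. The ages did not overlap, but P14 replicate 1 lay far below the other P14 libraries and Loxl2 missed the threshold (-0.80, SE 0.292, limma adjusted p = 0.0791). It fell by 0.50 without P14 replicate 1 (SE 0.118, adjusted p = 0.00866). Loxl3 and Loxl4, the other members of the family, were at 4.54 ± 1.65 and 2.49 ± 1.09 FPKM at P14, against 7.14 ± 1.44 and 3.74 ± 0.687 FPKM at E17.5, and neither was called, also when P14 replicate 1 was left out (lowest adjusted p 0.0655).

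Ratios within a library do not depend on how libraries were scaled. Lox stood at 0.611, 0.405, 0.455 and 0.452 times the level of Loxl1 in P14 replicates 1 to 4, against 2.39, 2.43, 3.80 and 3.57 times at E17.5. The order of the pair was thus turned round, in P14 replicate 1 as well. The log2 ratio differed by -2.65 (exact two-sided permutation p = 0.0286, the smallest possible, adjusted over 9 ratios 0.0857). Lox over Loxl2 differed by -1.28 and Loxl1 over Loxl2 by 1.37, with the same exact and adjusted p. None of the 9 ratios passed 0.05 after adjustment, and 3 had an unadjusted exact p under 0.05, all 3 among the lysyl oxidases. With so few libraries, a ratio could pass after adjustment only if several of the 9 reached the smallest possible p together. With P14 replicate 1 left out, 5 had an exact p of 0.0286 and an adjusted p of 0.0514.

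Serpinh1 (gene ID 12406, chromosome 7, 98994582 to 99002480, minus strand) had by far the highest level of the 10 genes at both ages. It was at 126, 409, 336 and 400 FPKM in P14 replicates 1 to 4, against 519, 482, 412 and 378 FPKM at E17.5. The ages overlapped, with P14 replicates 2 and 4 inside the E17.5 range. Serpinh1 did not pass with all libraries (-0.62, SE 0.365, limma adjusted p = 0.243) or without P14 replicate 1 (-0.22, SE 0.128, adjusted p = 0.176).

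**Figure D3:**
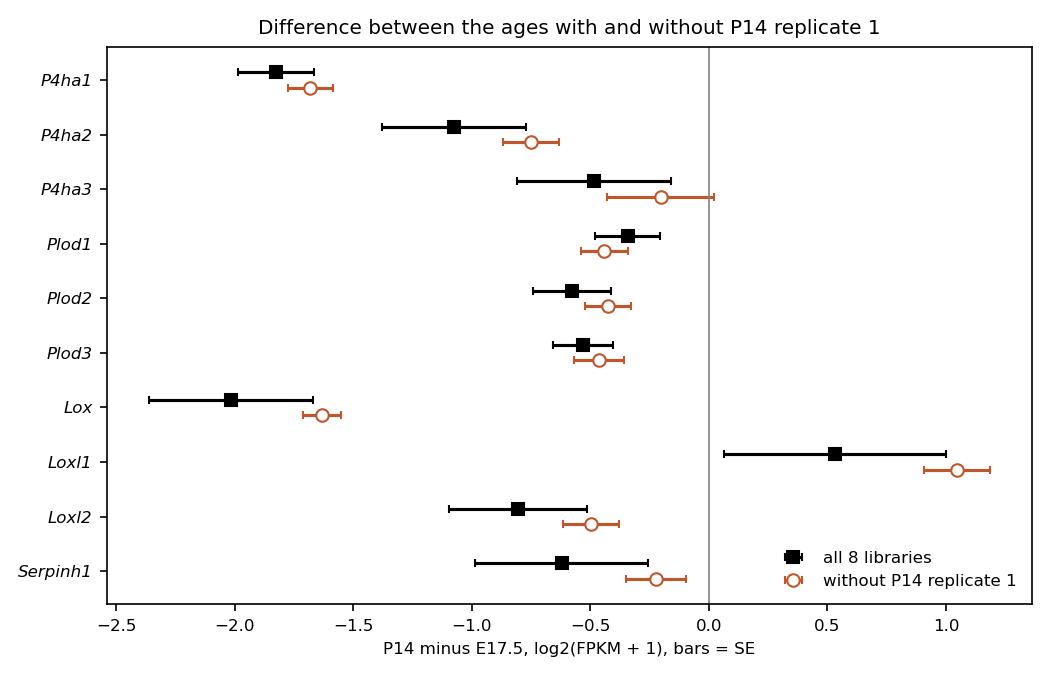
Difference between P14 and E17.5 on the log2(FPKM + 1) scale for each of the 10 genes, with bars of 1 SE. Squares are all 8 libraries and circles leave out P14 replicate 1. P4ha1 and Lox lie at -1.83 and -2.02 with all libraries, and Loxl1 is at 0.53 with all libraries and 1.05 without P14 replicate 1.

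By mean level, the order at P14 was Serpinh1, Loxl2, Plod1, Loxl1, Plod3, Lox, P4ha1, P4ha2, Plod2 and P4ha3. At E17.5 it was Serpinh1, Lox, Loxl2, Plod1, P4ha1, Plod3, Loxl1, P4ha2, Plod2 and P4ha3. At P14 the ranges of neighbours overlapped from Loxl2 down to Plod2. Over P14 replicates 2 to 4 alone, the order was Serpinh1, Loxl1, Loxl2, Plod1, Lox, Plod3, P4ha1, P4ha2, Plod2 and P4ha3. There, Loxl1 overlapped Loxl2, Lox overlapped Plod3 and P4ha2 overlapped Plod2, and the ranges of all other neighbours were apart. At E17.5, Lox overlapped Loxl2, Plod1 overlapped P4ha1, and Plod3, Loxl1 and P4ha2 overlapped in turn.

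The 10 genes differed in how far P14 replicate 1 lay from the other P14 libraries. Its level was 0.219 times the mean of the other P14 libraries for Loxl1, 0.22 for P4ha3, 0.307 for Lox, 0.331 for P4ha2, 0.33 for Serpinh1 and 0.413 for Loxl2. It was 0.604 for Plod2, 0.635 for P4ha1, 0.818 for Plod3 and 1.33 for Plod1. It was the lowest P14 library for 9 of the 10 genes, as for 40.9% of all tested genes. Over the marker lists the median of the same ratio was 0.373 for fibroblasts, 0.307 for smooth muscle and 14.6 for epithelium. The part of epithelial RNA in these values was not tested.

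A comparison with fibrillar collagens was made within each library by subtracting the mean log2(FPKM + 1) of Col1a1, Col1a2, Col3a1, Col5a1 and Col5a2, the main fibrillar chains. Elastin and collagen IV, named above as further substrates of lysyl oxidases, are not part of this mean. In this mean each chain counts equally, and Col5a1 itself fell by 1.14 with all libraries (limma adjusted p = 0.0338). Without P14 replicate 1, Col5a1 fell by 0.79 and Col3a1 rose by 0.30 (limma adjusted p = 0.000201 and 0.0125). Summed FPKM, most of it from Col1a1, Col1a2 and Col3a1, is another measure. For these chains it was 715 in P14 replicate 1 and 2024 to 2094 in P14 replicates 2 to 4, against 1900 to 2227 at E17.5. Relative to the mean of the chains, Lox was at -3.86, -3.80, -3.86 and -3.79 in P14 replicates 1 to 4, against -2.44, -2.54, -2.17 and -2.12 at E17.5. P14 replicate 1, the outlying library in plain FPKM, lay among the other P14 libraries on this scale. The difference was -1.51 (exact two-sided permutation p = 0.0286, adjusted over 10 genes 0.0714).

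P4ha1 differed by -1.32 and P4ha2 by -0.57 relative to the collagens, and Loxl1 by 1.04, each with the same exact and adjusted p and no overlap between the ages. Loxl1 was higher against the collagens in all 4 P14 libraries, at -3.23 in replicate 1 and -2.77 to -2.54 in the others, against -4.03 to -3.66 at E17.5. Serpinh1 overlapped between the ages on this scale, at 0.37 to 0.63 in the P14 libraries and 0.47 to 0.74 in the E17.5 libraries (difference -0.11, exact p = 0.2). Plod1, Plod2 and Plod3 stood high in P14 replicate 1, at -1.18, -4.28 and -2.69, against -2.98 or less, -5.12 or less and -3.82 or less in the other P14 libraries. No gene passed 0.05 after adjustment with all libraries, where 4 had an exact p of 0.0286, and 6 passed without P14 replicate 1, each at an adjusted p of 0.0476. These were P4ha1, P4ha2, Plod1, Plod3 and Lox, all lower, and Loxl1, which was higher. An exact p of 0.0286 was the smallest possible in both cases, so a pass depended on how many genes reached it. P4ha1, P4ha2, Lox and Loxl1 had it with and without P14 replicate 1, and Plod1 and Plod3 only without. The change from no pass to a pass therefore says nothing further about P4ha1, P4ha2, Lox and Loxl1.

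**Figure D4:**
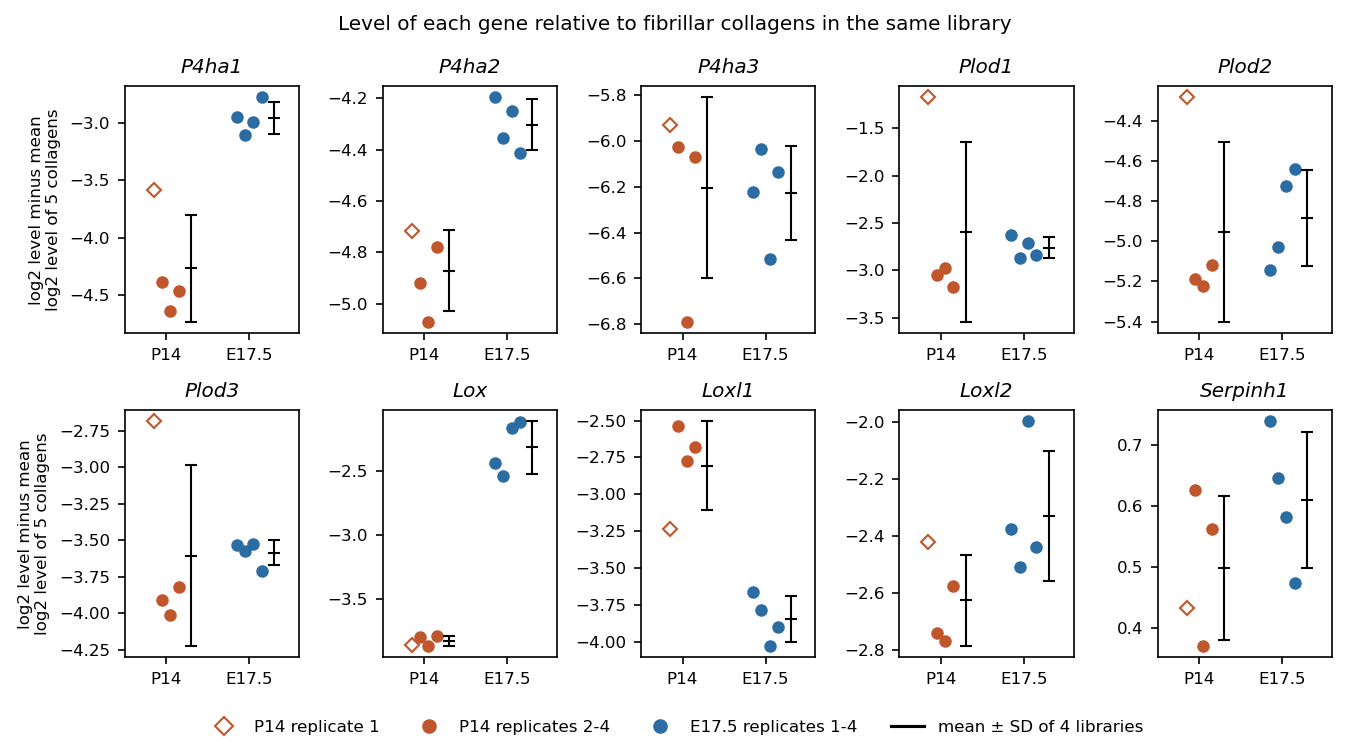
Level of each gene minus the mean level of 5 fibrillar collagen chains in the same library, both as log2(FPKM + 1), for the P14 and E17.5 libraries. The axes do not start at 0, the open diamond is P14 replicate 1, and bars are mean ± SD of 4 libraries. Lox and P4ha1 are lower and Loxl1 is higher in all 4 P14 libraries than in any E17.5 library, and the Plod genes of P14 replicate 1 lie above all others.

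Lists of genes that act beside the 10 were read in the same way, against the same shares of all tested genes: 15% down and 9.72% up with all libraries, and 26.9% down and 22.6% up without P14 replicate 1. Of 12 partners in collagen modification and folding, 1 fell and 11 were not called, with a median of -0.30. Fkbp14, a prolyl isomerase of the endoplasmic reticulum, was at 7.58 ± 3 FPKM at P14 and 14.4 ± 0.74 FPKM at E17.5 (-0.92, SE 0.268, limma adjusted p = 0.04), a call that ended without P14 replicate 3 (adjusted p 0.0889) or any E17.5 library (adjusted p 0.0816 to 0.101), in TPM (adjusted p 0.0551) and with no filter (adjusted p 0.0828). P4hb, the beta subunit that pairs with the P4ha proteins, was at 775 FPKM in P14 replicate 1 and 150 to 216 FPKM in the other P14 libraries, against 208 to 250 FPKM at E17.5. It was not called (0.21, adjusted p = 0.77), and its difference was -0.31 without P14 replicate 1 (adjusted p = 0.0834). With that library left out, Fkbp14, P3h1, P3h2 and Ero1a were called down and none was called up. P3h1 and P3h2 are prolyl 3-hydroxylases and Ero1a reoxidises protein disulphide isomerase.

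Among 11 tested genes of procollagen export and processing, 1 fell and 10 were not called (median -0.12). Adamts3, a protease that removes the amino-terminal propeptide of procollagen, was at 0.843 ± 0.174 FPKM at P14 and 3.09 ± 0.436 FPKM at E17.5 (-1.15, SE 0.123, limma adjusted p = 0.00108). Pcolce, which speeds removal of the carboxy-terminal propeptide, was at 84.3 ± 32.4 FPKM at P14 and 85.9 ± 18.1 FPKM at E17.5 (adjusted p = 0.826). With P14 replicate 1 dropped, 3 of the 11 fell and none rose, beside 26.9% of all tested genes called down.

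Of 3 tested genes of cofactor supply, Atp7a, the copper pump that loads lysyl oxidases in the secretory pathway, fell by 0.99 (SE 0.232, limma adjusted p = 0.0193). It was at 9.73 FPKM in P14 replicate 1 and 4.51 to 4.86 FPKM in P14 replicates 2 to 4, against 10.3 to 14.1 FPKM at E17.5. Dropping P14 replicate 3 or 4 (adjusted p 0.055 and 0.0513) or E17.5 replicate 3 or 4 (adjusted p 0.0621 and 0.0596) ended the call, and Atp7a fell by 1.22 with P14 replicate 1 left out. Slc39a13, a zinc transporter of the early secretory pathway, was at 10.8 ± 2.93 FPKM at P14 and 11.2 ± 0.918 FPKM at E17.5 (adjusted p = 0.762).

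Of 9 tested fibrillar collagen chains, 1 rose, 3 fell and 5 were not called, with a median of -0.44, and 3 rose and 3 fell without P14 replicate 1 (median -0.076). Col24a1, a minor chain, was at 1.45 ± 0.53 FPKM at P14 and 5.12 ± 0.181 FPKM at E17.5, and fell by 1.35 (SE 0.157, limma adjusted p = 0.00147). Of the collagen V chains, Col5a2 was not called (-0.28, limma adjusted p = 0.566, or 0.092 and 0.387 without P14 replicate 1). The others parted. Col5a1 fell by 1.14 (SE 0.315, adjusted p = 0.0338) and Col5a3 rose by 1.37 (SE 0.391, adjusted p = 0.0371), at 3.77, 13.8, 12.2 and 14.5 FPKM in the P14 libraries and 2.20 to 4.85 FPKM at E17.5. The Col5a1 call was lost without P14 replicate 3 or any one E17.5 library (adjusted p 0.0536 to 0.085), and that of Col5a3 when any library but P14 replicate 1 was dropped (adjusted p 0.0549 to 0.105). With no filter neither Col5a1 (adjusted p 0.0704) nor Col5a3 (adjusted p 0.0773) was called, and in TPM Col5a3 was not (adjusted p 0.089). Col3a1, the chain with the highest level, was at 736 ± 278 FPKM at P14 and 713 ± 44.2 FPKM at E17.5 (-0.07, adjusted p = 0.894), and rose by 0.30 without P14 replicate 1 (adjusted p = 0.0125).

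Of 8 elastic fibre genes, substrates or partners of the lysyl oxidases, 2 fell and 6 were not called (median -0.52). Eln, the gene of elastin, was at 71.6, 424, 239 and 358 FPKM in P14 replicates 1 to 4, against 94.4, 98.97, 65.8 and 78.6 FPKM at E17.5. Like Loxl1, it was high in P14 replicates 2 to 4 and not in replicate 1. It was not called with all libraries (1.43, SE 0.515, limma adjusted p = 0.0775) and rose by 1.98 without P14 replicate 1 (adjusted p = 0.000307). Fbn2, the fibrillin typical of fetal tissue, fell by 1.84 (SE 0.328, adjusted p = 0.00709), and Mfap4, a microfibril protein, by 1.14 (SE 0.298, adjusted p = 0.028). Mfap4 was not called when E17.5 replicate 1, 2 or 3 was dropped (adjusted p 0.0741, 0.076 and 0.0688), or with no filter (adjusted p 0.0601).

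Of 11 general chaperones of the endoplasmic reticulum, which serve all secreted proteins, 2 fell, 9 were not called and the median was -0.30. Without P14 replicate 1, 9 fell and the median was -0.66. Pdia6 and Pdia4, disulphide isomerases, fell by 0.78 (SE 0.153, limma adjusted p = 0.00987) and 0.75 (SE 0.216, adjusted p = 0.0393), but Pdia4 was not called when any library but P14 replicate 1 was dropped (adjusted p 0.0701 to 0.105) or with no filter (adjusted p 0.08). Calr, calreticulin, was at 608 FPKM in P14 replicate 1 and 201 to 257 FPKM in the other P14 libraries, against 285 to 344 FPKM at E17.5 (adjusted p = 0.742). It fell by 0.53 with P14 replicate 1 left out (adjusted p = 0.00433).

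Of 13 genes of the hypoxia response other than the 10 described, 6 fell, none rose and 7 were not called, with a median of -0.64. Slc2a1, a glucose transporter, was at 19.99, 5.26, 6.80 and 7.72 FPKM in the P14 libraries, against 29.0 to 34.5 FPKM at E17.5, and fell by 1.78 (SE 0.342, limma adjusted p = 0.00939). Vegfa, the endothelial growth factor, was at 14.6 ± 2.32 FPKM at P14 and 40.2 ± 1.36 FPKM at E17.5 (-1.41, SE 0.121, adjusted p = 0.000616), and Pdk1, a kinase that limits pyruvate oxidation, at 5.1 ± 0.589 FPKM at P14 and 11.8 ± 1.93 FPKM at E17.5 (-1.07, SE 0.132, adjusted p = 0.00181). Pgk1, the glycolytic gene with the highest mean level of this list, fell by 0.40 (SE 0.12, adjusted p = 0.0434), a call that ended when any library but P14 replicate 1 was dropped (adjusted p 0.0566 to 0.111) or with no filter (adjusted p 0.084). With P14 replicate 1 dropped, 9 fell and Car9, a carbonic anhydrase, rose by 0.57 (adjusted p = 0.00544).

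**Figure D5:**
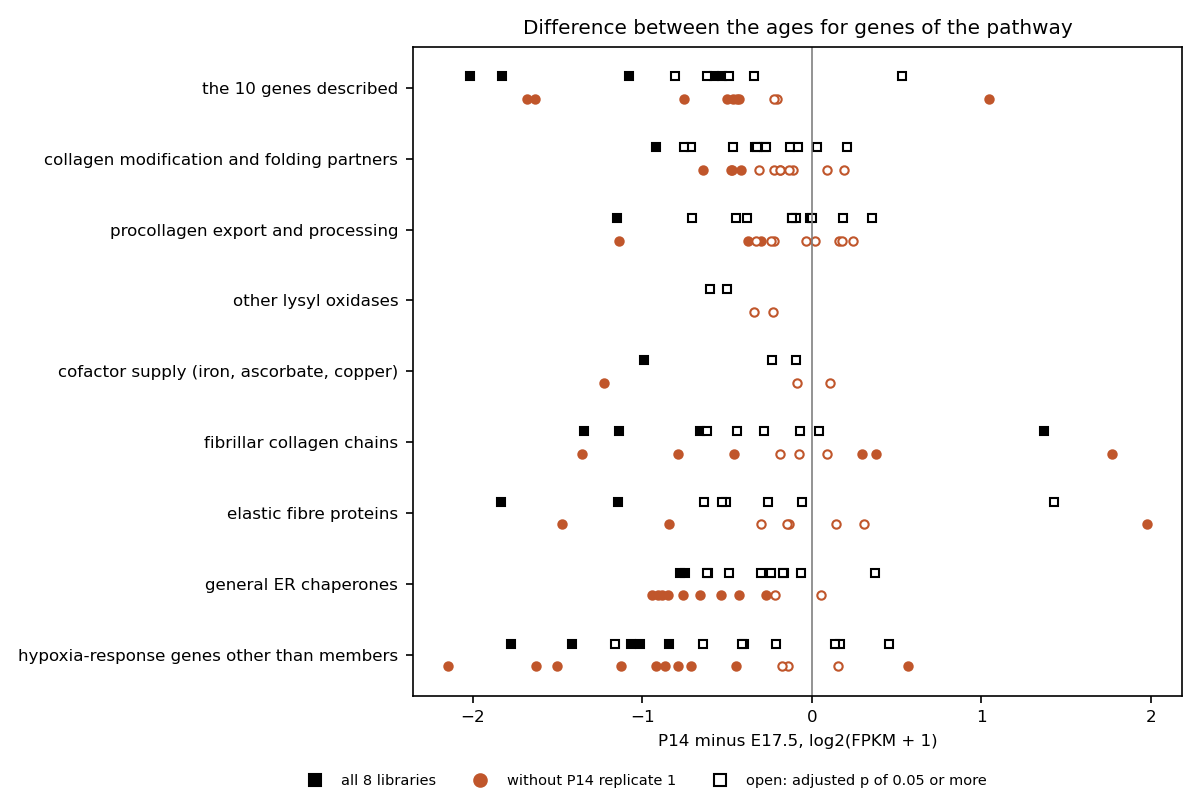
Difference between P14 and E17.5 on the log2(FPKM + 1) scale for the 10 genes and the tested genes of 8 related lists. Squares are all 8 libraries, circles leave out P14 replicate 1, and filled symbols have an adjusted p under 0.05. The hypoxia list has 6 filled squares, all left of 0, and the chaperone list has 2 filled squares and 9 filled circles.

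The genes whose pattern over the 8 libraries was most like that of each gene were found by Pearson's correlation of log2(FPKM + 1) across tested protein-coding genes, as a description. P4ha1 was closest to Egln3, which encodes an oxygen-sensing prolyl hydroxylase, and about equally to Fabp5 and Spats2 (r = 0.996 for each). P4ha2 was closest to Map3k3 (r = 0.998), Fscn1 and Lsp1, and P4ha3 to Vsig2 (r = 0.974), Cdr2 and E2f1. Plod1 was closest to Mgme1 (r = 0.986), Sympk and Fbxl19, Plod2 to Mef2c (r = 0.995), B230219D22Rik and Phactr2, and Plod3 to Kctd20 (r = 0.993), Ccne1 and Mapk7. Lox was closest to Fbn2 (r = 0.998), Arhgap31 and Tmeff1. Loxl1 was closest to Ptgis, which encodes prostacyclin synthase (r = 0.998), Fibin and Sfxn3, and Loxl2 to E2f7 (r = 0.994), Mr1 and Gm527. Serpinh1 was closest to Cd248, a marker of stromal cells (r = 0.998), Anxa6 and Gm42226. Among the 10 genes, Lox correlated with P4ha1 at 0.966 and with Loxl1 at 0.031, and Plod1 with Loxl1 at -0.67. The 8 points share 2 ages and the outlying P14 replicate 1.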

How the data were processed

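RNA was sequenced from 8 libraries, 4 at P14 and 4 at E17.5, grouped by their titles. The authors deposited 1 FPKM value per gene and library, with gene length, position and biotype. Per the submitters' processing notes, the authors used CASAVA, fastp, HISAT2, featureCounts, DESeq2 1.20.0 and GRCm39, whose roles and strand setting are not stated. Multiplied by gene length, 100% of values were whole multiples of a library's smallest step (tolerance 1e-06), so reads could be recovered. The deposited FPKM had median-of-ratios factors of 1 in all 8 libraries, so this scaling is already in them. Effective library size over assigned reads was 0.78 for P14 replicate 1 and 1.02 to 1.06 elsewhere.

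Genes with an FPKM of at least 1 in 4 or more of 8 libraries were tested on log2(FPKM + 1), two-sided, with trend and robust moderation (limma 3.58.1 and statmod 1.5.0 under R 4.3.3), and p-values were adjusted (Benjamini-Hochberg) across the 14044 genes, with a threshold of 0.05. The pseudocount of 1 understates the changes of low genes. The steps were run on simulated data with no outlying library. That run says nothing about how the fit handles a library such as P14 replicate 1. For ratios, the exact two-sided permutation test enumerated 70 label assignments (35 when P14 replicate 1 was left out). The members and lists were chosen with earlier results of these data known. Named genes are the 10, and of each list up to 3 called genes with the largest change and the gene with the highest mean level, with the 3 genes of most similar pattern per member. Outside that rule, Loxl4, P3h1, P3h2, Ero1a and Car9 were named after their values were seen. The list genes not tested were Tll2, Pcolce2, Slc23a1, Col2a1 and Col11a2. Alternatives were another pseudocount, filter, scaling or moderation, voom on the recovered reads, a replicate block, and each library left out.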

Additional observations from a re-analysis of the deposited data

Results flagged for a closer look

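In groups of 4 libraries, 1 library was marked when its gap to the nearest of the others took up nearly the group's whole range (Dixon's 95% limit). In all, 58 groups were examined and 7 were marked; chance marks about 1 group in 20. Lox in P14 replicate 1 was at 5.51 FPKM, below the other P14 libraries. P14 replicate 1 also stood apart in the log2 ratio of Plod2 over Plod3 (-1.83) and in the levels of Plod1, Plod2 and Plod3 relative to fibrillar collagens (-1.18, -4.28 and -2.69). In P14 replicate 3, P4ha3 relative to fibrillar collagens was at -6.79. In E17.5 replicate 4, the log2 ratio of P4ha1 over P4ha2 was 1.72, above the other E17.5 libraries.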

How the results depend on the processing

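P4ha1 and Lox were called down under all alternatives run, and Serpinh1 and P4ha3 under none. Median-of-ratios scaling of all libraries is counted among these but repeated the main fit. The alternative that left out P14 replicate 1 made Loxl1, Plod1 and Loxl2 pass. Of the 10 genes, leaving out 1 library gave 2 to 7 called down and 0 to 1 up. With no filter 3 were called down, and voom on the recovered reads called 5 down, with 1269 up and 2155 down over all genes. Over all tested genes, leaving out 1 library gave 617 to 3176 up and 1118 to 3782 down, the highest without P14 replicate 1. TPM rescaling gave 899 up. Combined with leaving out P14 replicate 1, alternatives chosen after seeing the data, TPM gave 2741 up and 4387 down and median-of-ratios scaling 3171 up and 3820 down, with 1 of the 10 genes up in both.

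Leaving out 1 library gave, for the lists, 0 to 4 modification partners down, 1 to 3 export genes down, 0 to 1 cofactor gene down, 0 to 3 fibrillar chains up and 1 to 3 down, 0 to 1 elastic fibre gene up and 1 to 2 down, 1 to 9 chaperones down, and 0 to 1 hypoxia gene up. With no filter, 0 partners, 1 fibrillar chain, 1 elastic fibre gene and 1 chaperone were called down and 0 fibrillar chains up. At an FPKM of 5 or more, 0 export genes and 1 fibrillar chain were down and 0 chains up. TPM gave 0 partners down, 0 fibrillar chains up and 6 chaperones down, and quantile normalization 6 chaperones down. With P14 replicate 1 left out and TPM, 6 partners, 3 export genes, 1 other lysyl oxidase, 4 elastic fibre genes, 9 chaperones and 11 hypoxia genes were down, and 3 fibrillar chains, 1 elastic fibre gene and 1 hypoxia gene up. With it left out and median-of-ratios scaling, 4 partners, 3 export genes and 9 chaperones were down, and 3 fibrillar chains, 1 elastic fibre gene and 1 hypoxia gene up. The causes were not tested.

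Replicate numbers gave no sign of pairing the libraries: deviations of same-numbered libraries correlated at -0.033, 0.00947, -0.0641 and -0.0492. Taken over all tested genes, these correlations cannot exclude a weak pairing. With a replicate block, 695 genes were called up and 1049 down, 2 of the 10 down, 0 partners, 0 cofactor genes, 1 fibrillar chain, 1 elastic fibre gene and 1 chaperone down, and 0 fibrillar chains up. Of the 10, only P4ha1 and Lox stayed called. List genes that lost their call included Fkbp14, Atp7a, Col5a1 and Col5a3 (limma adjusted p 0.065, 0.0676, 0.0738 and 0.0682).

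Signs turned for values that were not called with all libraries. P4hb was at -0.31 without P14 replicate 1, -0.38 with TPM as well and -0.31 with median-of-ratios scaling as well, and leaving out 1 library spanned -0.31 to 0.48. For Pcolce these were 0.24, 0.18 and 0.24 (-0.27 to 0.24), for Slc39a13 0.11, 0.044 and 0.10 (-0.18 to 0.11), and for Col3a1 0.30, 0.23 and 0.29 (-0.19 to 0.30). The log2 ratio of Plod2 over Plod3 spanned -0.22 to 0.026, being 0.0027 without P14 replicate 1. The value of P4ha3 relative to fibrillar collagens spanned -0.0737 to 0.22 and was -0.26 and -0.10 with a pseudocount of 0.1 and 0.5, Plod1 spanned -0.31 to 0.36, Plod2 -0.29 to 0.021 and Plod3 -0.33 to 0.11. Genes passing relative to the collagens numbered 0 to 6. P4ha3, on the fewest reads of the 10 genes (19 to 160 per library), has the least depth behind it.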
